A study of Mus musculus with 2 samples.

Results

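Egr1, Egr2, Nr4a2, Fos and Jun encode transcription factors that T cells switch on within minutes to hours of a stimulus, and they were followed here in single spleen T cells of transplanted mice given tacrolimus or an antibody to interleukin-2. The 5 genes were taken by name from the 2000 genes in the deposited tables. The recipients were lethally irradiated wild-type BALB/C mice injected intravenously with spleen and bone marrow cells of wild-type C57BL/6 donors, so that donor T cells meet foreign tissue antigens. Tacrolimus or the anti-IL-2 antibody was given from day 0, and single cells were isolated fresh from the spleen on day 6. There was 1 droplet library with 5′ chemistry for each treatment, 1551 cells for anti-IL-2 and 1688 for tacrolimus, with no untreated library among the samples. Treatment and library are therefore the same split and cannot be told apart, cells of a library are not replicates, and no test between treatments was possible. The sources used here do not say how many recipients stand behind a library.

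The T-cell receptor signals through calcium and calcineurin to the factor NFAT, and through Ras and ERK to the serum response factor and its partners. Egr1 and Egr2 are zinc-finger factors induced mainly along the ERK route, with NFAT acting at Egr2 as well, and Egr2 is known for its part in T-cell unresponsiveness. Nr4a2 is an orphan nuclear receptor of a family whose genes follow receptor signalling in T cells and NFAT activity. Fos and Jun pair to form AP-1, which binds DNA together with NFAT, but both genes also rise in many cell types when tissue is dissociated or cells are stressed. Tacrolimus blocks calcineurin, while the antibody acts on the cytokine interleukin-2.

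The 250 bases upstream of the start sites are shown because DNA elements through which genes receive such signals can lie there. They come from RefSeq (build GRCm38.p6), where 4 of the 5 genes matched. Each is written 5′ to 3′ on the gene's strand, with 3 kinds of element in capitals: the CArG box bound by the serum response factor, TGACG on either strand (part of the site of the cAMP response element factor CREB), and TGANNTCA, a site form for dimers of Jun and ATF proteins.
Egr2: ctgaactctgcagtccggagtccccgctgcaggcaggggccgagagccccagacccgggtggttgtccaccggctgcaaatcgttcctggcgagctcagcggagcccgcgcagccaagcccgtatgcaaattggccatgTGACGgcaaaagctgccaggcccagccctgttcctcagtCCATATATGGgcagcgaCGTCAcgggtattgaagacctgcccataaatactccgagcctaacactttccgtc
Nr4a2: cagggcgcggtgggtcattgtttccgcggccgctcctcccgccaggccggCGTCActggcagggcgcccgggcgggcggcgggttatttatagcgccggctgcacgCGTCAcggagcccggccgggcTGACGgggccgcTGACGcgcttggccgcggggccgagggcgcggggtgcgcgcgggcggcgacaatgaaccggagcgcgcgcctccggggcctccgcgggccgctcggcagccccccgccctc
Fos: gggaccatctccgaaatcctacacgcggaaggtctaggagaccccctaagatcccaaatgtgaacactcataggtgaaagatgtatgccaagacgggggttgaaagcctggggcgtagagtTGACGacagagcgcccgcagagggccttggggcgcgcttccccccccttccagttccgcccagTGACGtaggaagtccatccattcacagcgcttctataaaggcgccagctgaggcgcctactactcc
Jun: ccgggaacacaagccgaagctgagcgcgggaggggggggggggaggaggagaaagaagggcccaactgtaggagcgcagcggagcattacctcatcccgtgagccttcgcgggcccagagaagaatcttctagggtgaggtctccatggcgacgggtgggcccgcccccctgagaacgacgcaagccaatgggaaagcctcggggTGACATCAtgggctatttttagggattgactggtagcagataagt
These windows lie at chr10:67537619-67537868 (plus strand) for Egr2, chr2:57124004-57124253 (minus strand) for Nr4a2, chr12:85473640-85473889 (plus strand) for Fos and chr4:95052223-95052472 (minus strand) for Jun. In the GENCODE annotation of mm10 they overlap 0 exons of their gene. Those of Fos and Jun lie directly upstream of the gene, that of Nr4a2 lies directly upstream of its outermost start (8965 bases from the start of the first-numbered GENCODE transcript), and that of Egr2 lies upstream of the first-numbered transcript and within the span of a longer gene model. The Egr2 window holds 1 CArG box, CCATATATGG, beginning 72 bases before the start, an element that 1.47% of 32817 mouse promoters of this length in the same table hold. TGACG, searched on both strands, is in 17.7% of those promoters and occurs 4 times in the Nr4a2 window and 2 times in each of the Egr2 and Fos windows. The Jun window holds TGACATCA, a match to TGANNTCA that begins 45 bases before the start, and 11.9% of promoters hold such a match. The AP-1 form TGANTCA, in 6.75% of promoters, is in 0 of the 4 windows. GGAAA, the core of an NFAT site (both strands, 55.6% of promoters), is in the Egr2, Nr4a2 and Jun windows. These are matches of letters in a window and say nothing about binding. Elements can also lie outside a window, so a window without an element does not show that the gene lacks it.

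Cells were sorted into gates by their own transcripts. A CD4 gate held cells with a Cd4 transcript and none of Cd8a or Cd8b1, and a CD8 gate held the converse, which left 258 and 750 anti-IL-2 cells and 293 and 989 tacrolimus cells with at least 200 detected genes. The median depth was 10213 and 15457 unique molecular identifiers (UMIs, counted transcripts) per cell in the anti-IL-2 gates and 11463 and 14025 in the tacrolimus gates, counted over the 2000 genes. Of 8 T-cell markers such as Cd3e, 0 are among those genes, so the labelled T-cell identity was checked by Cd4, Cd8a and Cd8b1 alone. Among B-cell and plasma-cell markers, Cd79a, Ms4a1 and Mzb1 were at 0 in the CD4 gate of both libraries, and Ms4a1 was at 0 in the CD8 gate of both. Cd74 was in 19.8% of anti-IL-2 and 12.6% of tacrolimus CD4-gate cells and Cd79b in 10.7% and 15.2% of CD8-gate cells, and at least 1 of the 7 such markers measured was in 16.0% to 21.7% of the cells of a gate. Transcripts of pancreatic acinar cells, which T cells do not make, were in 72.0% of CD4-gate and 74.1% of CD8-gate tacrolimus cells and in 10.1% and 8.53% of anti-IL-2 cells. At least 1 of 10 myeloid markers, mostly Fcer1g in the CD8 gate, was in 7.36% and 24.1% of anti-IL-2 and 14.3% and 29.7% of tacrolimus cells (CD4 gate, then CD8 gate). The part of such outside RNA or cells in the results was not tested. The gates also differed in make-up: 28.7% of anti-IL-2 CD4-gate cells were dividing (at least 2 of 6 mitotic genes detected) against 68.9% under tacrolimus, and 69.2% against 86.6% in the CD8 gate. Tcf7, which encodes the factor TCF-1 of naive and stem-like T cells, was detected in 71.3% and 15% of CD4-gate cells and in 30.4% and 2.83% of CD8-gate cells, in the same order of libraries. The libraries shared 4 cell barcodes.

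In the CD4 gate, Egr2 and Jun were in more anti-IL-2 than tacrolimus cells, while Nr4a2 was the 1 gene of the 5 with a lower share. Values below are shares of cells with at least 1 UMI, and intervals are 95% exact intervals that cover counting error alone. Tacrolimus cells were thinned by rank to the UMI totals of the other library where their own were higher. Anti-IL-2 cells were not thinned, so they kept the greater depth where they were deeper, as at the median of the CD8 gate. A gene was called higher or lower by size, with a share of at least 5% in one library and a ratio of at least 1.5; this is no test. By that rule 2 of the 5 genes were higher and 0 lower, where 11.5% of 917 genes measured at the minimum were higher and 40.0% were lower. The median gene of the gate had a log2 ratio of -0.36, and the 5 genes had a median of 0.54.

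Egr1 was in 12% (8.31% to 16.6%) of the 258 anti-IL-2 CD4-gate cells and in 9.52% (6.44% to 13.5%) of tacrolimus cells (10.2% of 293 before thinning), and these intervals overlap. Egr2, which is tied to limits on T-cell activation, was in 14 anti-IL-2 cells, 5.43% (3.0% to 8.94%), and in 4 tacrolimus cells, 1.28% after thinning (0.373% to 3.46%). That is a ratio of 4.25 with a counting interval of 1.25 to 16.6, wide because it rests on so few cells, and the intervals of the shares overlap slightly. Nr4a2 was in 7.36% (4.49% to 11.3%) and 9.80% (6.73% to 13.9%), a ratio of 0.752 (0.394 to 1.37). Neither Egr1 nor Nr4a2 was called in this gate.

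The AP-1 genes stood as follows in the CD4 gate. Fos was in 17.1% (12.7% to 22.2%) under anti-IL-2 and 11.7% (8.17% to 15.8%) under tacrolimus, a ratio of 1.45 (0.918 to 2.37) that fell short of the rule. Jun, the partner of Fos, was in 35.7% (29.8% to 41.8%) and 21.4% (16.9% to 26.7%), a ratio of 1.67 (1.19 to 2.32), and its intervals do not overlap. Among anti-IL-2 cells with Jun, 44.6% held 2 or more UMIs, against 43.3% of the unthinned tacrolimus cells. The highest Jun counts were 14 and 5 UMIs. By mean UMIs per 10000 the log2 ratio of Jun was 1.10, against 0.74 by shares, so the gap was not in the share of cells alone.

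In the CD8 gate the pattern was another one: Nr4a2 and Egr1 were in more anti-IL-2 cells, and Fos was level. Here 2 of the 4 genes at the 5% minimum were higher and 0 lower, where 8.24% of 934 genes were higher and 9.42% lower, and the median gene had a log2 ratio of -0.16. Under anti-IL-2 Nr4a2 was in 319 of 750 cells, 42.5% (39.0% to 46.2%), and it was in 25.5% (22.8% to 28.3%) under tacrolimus, a ratio of 1.67 (1.41 to 1.98). Those intervals lie far apart, and this is the difference that rests on the most cells. Egr1 was in 8.93% (6.99% to 11.2%) and 4.23% (3.08% to 5.70%), a ratio of 2.11 (1.41 to 3.17), again without overlap. Egr2 was in 2.93% (1.85% to 4.41%) and 1.52% (0.851% to 2.49%), below the minimum in both libraries, with a ratio of 1.93 (0.959 to 4.01). Fos was in 10.7% (8.55% to 13.1%) and 10.6% (8.77% to 12.7%), and Jun in 29.9% (26.6% to 33.3%) and 26.1% (23.4% to 28.9%). For these AP-1 genes the intervals of the ratio, 0.742 to 1.36 and 0.953 to 1.37, take in 1.

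**Figure D1:**
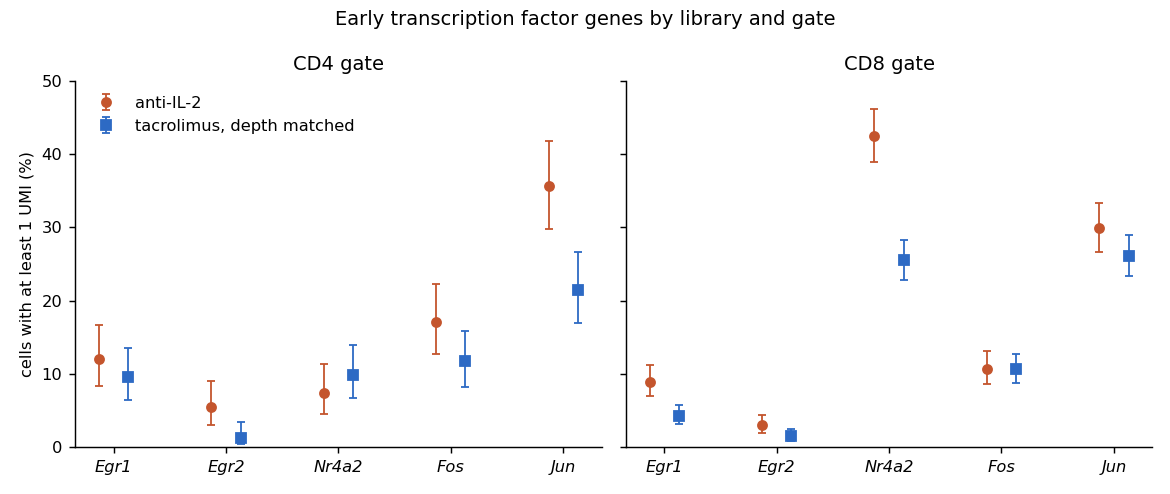
Percentage of cells holding 1 or more UMIs of each gene (y axis, percent) in the CD4 gate (left) and CD8 gate (right). Circles are anti-IL-2 cells, not thinned, and squares are tacrolimus cells thinned to anti-IL-2 depths where they were deeper. Bars are exact 95% counting intervals. Jun separates the libraries in the CD4 gate (35.7% and 21.4%) and Nr4a2 in the CD8 gate (42.5% and 25.5%), while Fos stands at 10.7% and 10.6% in the CD8 gate.

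By mean UMIs per 10000 of the cell's total, Nr4a2 stood at 0.563 in anti-IL-2 and 0.355 in tacrolimus CD8-gate cells and Jun at 0.650 and 0.304 in the CD4 gate, the same order as by shares. Of Nr4a2-positive CD8-gate cells, 50.2% and 46.6% held 2 or more UMIs.

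Because the gates held different shares of dividing cells, the same values were taken within division classes, a comparison added after the data were seen. Among dividing CD8-gate cells, Nr4a2 was in 47.2% of 519 anti-IL-2 cells and 27.1% of tacrolimus cells after thinning (ratio 1.74, 1.45 to 2.09), and Egr1 in 8.67% and 4.73% (ratio 1.83, 1.18 to 2.92). These 2 genes were the ones called, where 8.78% of genes were higher and 6.03% lower, so the Nr4a2 difference was as large within dividing cells as in the whole CD8 gate and that of Egr1 slightly smaller. In the 121 anti-IL-2 and 74 tacrolimus non-dividing CD8-gate cells, Nr4a2 was in 28.1% (20.3% to 37.0%) and 18.9% (10.7% to 29.7%), and the intervals overlap. Egr1 was in 9 and 1 of those cells, Fos in 11 and 3, and Jun in 34 and 13. By ratio these 3 were called higher, where 15.7% of genes were higher and 20.8% lower, but the counting interval of each ratio takes in 1 (0.763 to 241 for Egr1). Here too the anti-IL-2 cells were deeper, at a median of 11012 UMIs against 8651. With all cells thinned to the same UMI total, Jun was in 14.4% (8.47% to 21.7%) and 10.9% (4.92% to 20.7%). Fos was then in 5.78% and 2.64%, and Egr1 in 4.31% and 0.685%, below the minimum. The intervals of all 3 genes overlap.

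The CD4 gate looked different once split. Among its dividing cells, 74 and 202 in number, Jun was in 41.9% (30.5% to 53.9%) under anti-IL-2 and 26.7% (20.8% to 33.4%) under tacrolimus, a ratio of 1.57 (0.974 to 2.48). Fos was in 10.8% (4.78% to 20.2%) and 14.5% (9.83% to 20.0%), so its log2 ratio was -0.42, against 0.54 in the whole gate. Jun and Egr2 were called higher there, where 12.9% of genes were higher and 22.8% lower, and the Egr2 call rests on 4 and 2 cells. In the 127 and 59 non-dividing cells, Fos was in 22.0% (15.2% to 30.3%) and 9.91% (3.82% to 20.8%), and Jun in 33.1% (25% to 42.0%) and 10.2% (3.82% to 20.8%). Both were called, where 15.3% of genes were higher and 25.7% lower, and the Jun ratio of 3.25 (1.38 to 9.36) rests on 42 anti-IL-2 and 6 tacrolimus cells. The Jun ratio was thus largest in non-dividing CD4-gate cells among the 4 sets of gate and division class, while the Fos ratio of 2.22 there stood beside 2.24 in non-dividing CD8-gate cells. The difference between division classes was not tested. Egr1 was in 14.2% and 11.6% of non-dividing CD4-gate cells (ratio 1.23, 0.476 to 3.38). In dividing ones it was in 8.11% and 9.84% (ratio 0.824, 0.269 to 2.11), and both intervals take in 1. Egr2 was in 6 of 127 anti-IL-2 and 0 of 59 tacrolimus non-dividing cells, where a count of 0 allows up to 5.08%.

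Within a library the 5 genes did not favour the same gate. For these comparisons every cell was thinned to 5000 UMIs, so shares are lower than those above. Nr4a2 was a gene of the CD8 gate in both libraries: under anti-IL-2 it was in 19.9% of CD8-gate cells (17.0% to 22.9%) and 3.25% of CD4-gate cells (1.37% to 6.11%), a ratio of 6.13 (3.11 to 14.9). Under tacrolimus it was in 12.3% (10.3% to 14.5%) and 4.52% (2.46% to 7.70%), a ratio of 2.72 (1.51 to 5.19). The 2 gates do not overlap in either library. Egr1 ran the other way, in 3.95% of CD8-gate and 7.97% of CD4-gate cells under anti-IL-2 (ratio 0.495, 0.268 to 0.924) and in 2.07% and 5.27% under tacrolimus (ratio 0.393, 0.190 to 0.820).

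Fos and Jun leaned to the CD4 gate under anti-IL-2. There Fos was in 4.16% of CD8-gate and 10.1% of CD4-gate cells (ratio 0.411, 0.232 to 0.716), and Jun in 11.7% and 21.7% (ratio 0.540, 0.383 to 0.779). Under tacrolimus Fos was in 4.41% and 6.28% (ratio 0.702, 0.395 to 1.29) and Jun in 11.5% and 11.6% (ratio 0.996, 0.669 to 1.51), so neither gene separated the gates. By the rule of size 1 gene was higher in the CD8 gate and 3 were lower under anti-IL-2, where 34.1% of genes were higher and 17.1% lower. Under tacrolimus the counts were 1 and 1, where 8.69% were higher and 10.3% lower. Egr2 was under the minimum at 1.27% and 3.11% of anti-IL-2 and 0.497% and 0.922% of tacrolimus cells in the CD8 and CD4 gates. The Nr4a2 ratio between gates remained above 1.5 within dividing cells, at 4.21 (1.42 to 14.0) under anti-IL-2 and 2.38 (1.27 to 5.22) under tacrolimus, and within non-dividing cells, at 5.98 (1.96 to 35.1) and 4.38 (0.763 to 35.1). The lean of Egr1 and Fos to the anti-IL-2 CD4 gate was not seen in dividing cells, where Egr1 was in 3.32% of CD8-gate and 3.56% of CD4-gate cells (ratio 0.934, 0.223 to 4.16) and Fos in 4.26% and 3.72% (ratio 1.15, 0.305 to 5.34). In non-dividing anti-IL-2 cells these ratios were 0.441 (0.121 to 1.33) and 0.427 (0.152 to 1.10). For Jun the ratio was 0.517 (0.288 to 0.953) in dividing and 0.631 (0.317 to 1.16) in non-dividing cells.

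In the CD8 gate Nr4a2 and Jun differed little by division once depth was equal. Under anti-IL-2, Nr4a2 was in 20.9% of dividing (17.4% to 24.7%) and 16.2% of non-dividing (9.81% to 23.6%) cells, and in 12.6% (10.4% to 15%) and 11.9% (5.88% to 22.4%) of tacrolimus cells. Jun was in 11.4% and 14.4% of anti-IL-2 cells and in 11.7% and 10.9% of tacrolimus cells. Egr1 was in 2.33% of dividing and 0.685% of non-dividing tacrolimus cells (ratio 3.40, lower bound 0.423) and Fos in 4.58% and 2.64% (ratio 1.74, 0.432 to 14.3), both under the 5% minimum for a call. Genes at the minimum were Nr4a2, Fos and Jun under anti-IL-2 and Nr4a2 and Jun under tacrolimus, and 0 of these were called in either direction. The others could not be called. Over all genes at the minimum, 42.5% and 42.1% were higher and 11.4% and 12% lower in dividing cells of the anti-IL-2 and tacrolimus libraries. Before thinning Nr4a2 was in 47.2% of dividing and 28.1% of non-dividing anti-IL-2 CD8-gate cells, whose median depths were 18897 and 11012 UMIs, so depth moves with that gap. Egr2, at 0 of 121 non-dividing anti-IL-2 CD8-gate cells before thinning (up to 2.48% allowed), was in 15 of 519 dividing ones.

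In the CD4 gate, Fos and Egr1 were in fewer dividing anti-IL-2 cells. Fos was in 3.72% of 72 dividing (0.868% to 11.7%) and 13.5% of 126 non-dividing cells (8.06% to 20.7%), and Egr1 in 3.56% (0.868% to 11.7%) and 9.77% (5.02% to 16.0%). The intervals overlap, and those of the ratios, 0.0580 to 1.07 and 0.0792 to 1.62, take in 1. Jun did not differ by division there, at 22.0% and 22.7% (ratio 0.967, 0.490 to 1.84). Those 2 lower calls stand where 12.7% of genes were lower and 40.3% higher. Under tacrolimus Fos was in 7.04% of dividing and 6.46% of non-dividing CD4-gate cells. Egr1 was called lower in dividing tacrolimus cells (4.10% and 8.49%) and Nr4a2 (5.31% and 2.71%) and Jun (13.1% and 7.72%) higher, where 12.5% of genes were lower and 40.2% higher, and each ratio interval takes in 1.

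**Figure D2:**
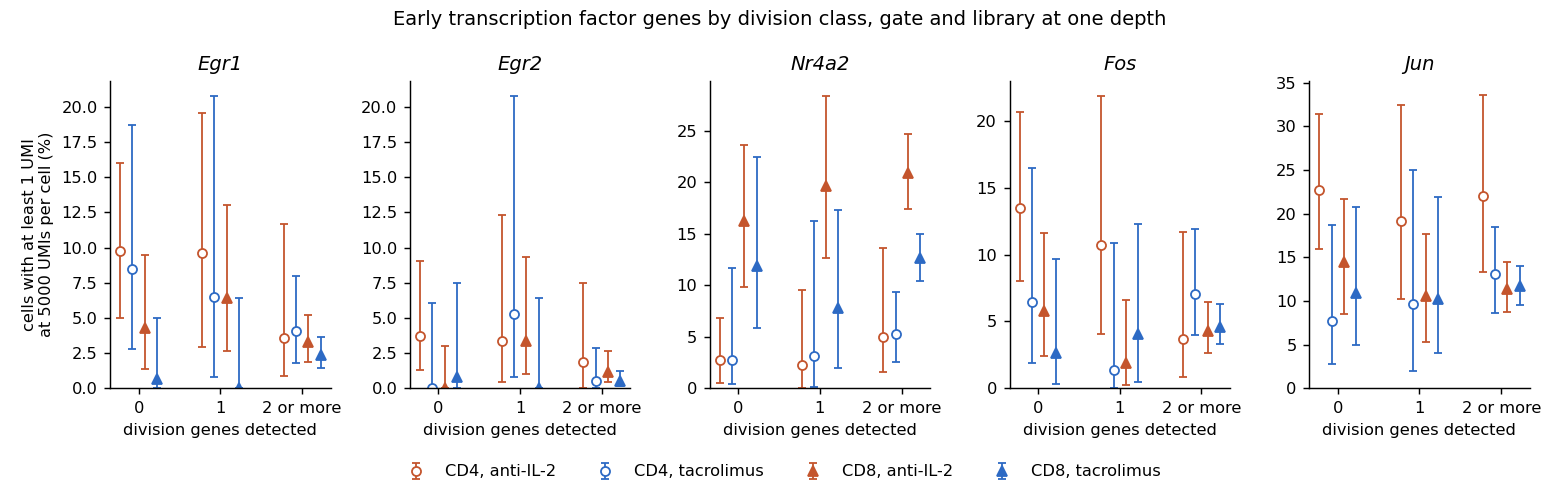
Percentage of cells holding 1 or more UMIs of each gene at 5000 UMIs per cell (y axis, percent, a scale of its own for each gene) against the number of 6 division genes detected (x axis); open circles are CD4-gate and filled triangles CD8-gate cells, the colour gives the library, bars are exact 95% counting intervals. For Nr4a2 the anti-IL-2 CD8-gate cells are the highest in each class (16.2% to 20.9%), while Fos peaks in non-dividing anti-IL-2 CD4-gate cells at 13.5%.

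Ordered over the 12 combinations of library, gate and division class at this depth, the genes had different peaks. Nr4a2 was highest in the 3 anti-IL-2 CD8-gate classes (20.9%, 19.6% and 16.2%), then in the 3 tacrolimus CD8-gate classes (12.6%, 11.9% and 7.78%), and the 6 CD4-gate classes came last at 2.26% to 5.31%. Dividing anti-IL-2 and dividing tacrolimus CD8-gate cells do not overlap in this order, whereas neighbouring classes within a library do. Fos was highest in non-dividing anti-IL-2 CD4-gate cells (13.5%), followed by CD4-gate cells of that library with 1 division gene (10.7%), and its other classes lay at 1.37% to 7.04%. Jun was led by the 3 classes of the anti-IL-2 CD4 gate, at 22.7%, 22.0% and 19.2%, and the remaining 9 lay at 7.72% to 14.4%. Egr1 was led by CD4-gate classes of both libraries, at 9.77%, 9.60%, 8.49% and 6.45%, and its neighbours in the order overlap throughout. Egr2 never passed 5.25%, a class with 32 cells, and its order is not resolved. In simulated data this thinning returned shares up to 1.14 percentage points low in the library whose counts had to be recovered, so the anti-IL-2 levels here may be understated against tacrolimus.

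Tcf7 detection divided the anti-IL-2 CD4 gate by AP-1 and Egr1. At 5000 UMIs, Fos was in 12.8% of 184 Tcf7-positive cells (8.09% to 18.2%) and 3.26% of 70 Tcf7-negative cells (0.348% to 9.94%), a ratio of 3.91 (1.08 to 38.3). Jun was in 25% (18.9% to 31.9%) and 13.3% (6.05% to 23.0%), a ratio of 1.88 (0.940 to 4.52), and Egr1 in 9.82% (5.90% to 15%) and 3.1% (0.348% to 9.94%), a ratio of 3.17 (0.820 to 30.4). Nr4a2 ran opposite, in 2.27% (0.595% to 5.47%) and 5.82% (1.58% to 14.0%). By size 3 genes were higher and 1 lower, where 20.1% of genes were higher and 31.2% lower, yet of these ratios the interval for Fos alone lies above 1. Without thinning Fos was in 38 of 184 and 6 of 74 cells, Jun in 71 and 21, and Egr1 in 28 and 3.

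Splitting further by division showed where these cells were. Fos was in 26 of 98 non-dividing Tcf7-positive CD4-gate cells under anti-IL-2, 26.5% (18.1% to 36.4%) before thinning, and in 2 of 29 non-dividing Tcf7-negative cells, 6.90% (0.846% to 22.8%). In dividing cells Fos was in 4 of 40 and 4 of 34, so the gap in Fos was seen among non-dividing cells. For Jun it was the reverse: 22 of 40 dividing Tcf7-positive cells, 55.0% (38.5% to 70.7%), against 9 of 34 Tcf7-negative ones, 26.5% (12.9% to 44.4%), and 33.7% against 31.0% in non-dividing cells. The difference between division classes was not tested.

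In the anti-IL-2 CD8 gate the split was smaller. Egr1 was in 6.23% of 222 Tcf7-positive (3.49% to 10.4%) and 2.93% of 499 Tcf7-negative cells (1.69% to 4.91%), a ratio of 2.13 (0.938 to 4.66), and this was the 1 call, where 12.6% of genes were higher and 25.9% lower. Egr2 was in 2.41% and 0.761%, under the minimum. Before thinning it was in 13 of 228 and 9 of 522 cells. Nr4a2 was in 17.5% (12.8% to 23.2%) and 21% (17.5% to 24.9%), Fos in 5.18% and 3.71%, and Jun in 14.8% and 10.4%, and these intervals overlap. In dividing CD8-gate cells Nr4a2 was in 46.4% of Tcf7-positive and 47.4% of Tcf7-negative cells before thinning, so Nr4a2 was as frequent on either side of Tcf7.

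The tacrolimus library held few Tcf7-positive cells, 44 in the CD4 gate and 28 in the CD8 gate. In the CD4 gate Fos was in 6.35% and 6.27% of Tcf7-positive and Tcf7-negative cells and Jun in 10.4% and 11.8%. Of Egr1, Fos and Jun, the genes at the minimum, 0 were called, where 11.0% of genes were higher and 35.4% lower. Egr2 and Nr4a2 were under the minimum. The intervals are wide, 0.202 to 3.86 for the Fos ratio of 1.01, and overlap those under anti-IL-2. In the CD8 gate Jun was in 3 of 28 Tcf7-positive and 256 of 961 Tcf7-negative cells. At 5000 UMIs that was 3.12% and 11.8% (ratio 0.265, 0.00789 to 1.79), the 1 call there, where 12.8% of genes were lower and 13.6% higher. With Tcf7 or Id3 as the marker its log2 ratio went from -1.92 to 0.02 and the call was lost.

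**Figure D3:**
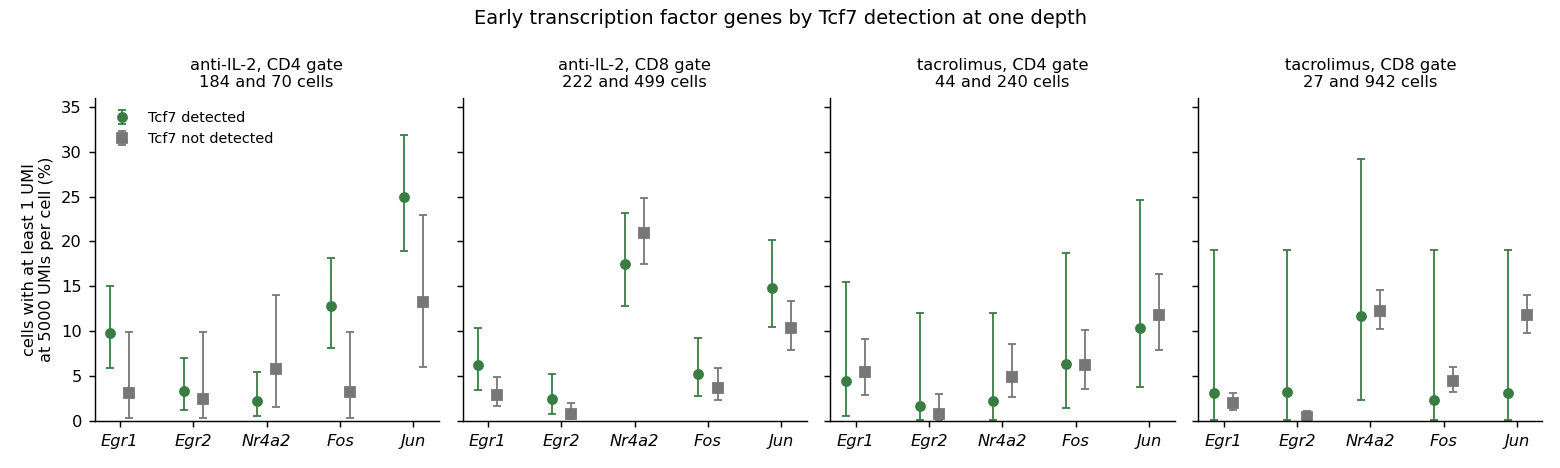
Percentage of cells holding 1 or more UMIs of each gene at 5000 UMIs per cell (y axis, percent) in Tcf7-positive (circles) and Tcf7-negative (squares) cells of each library and gate; bars are exact 95% counting intervals and panel titles give the cells. The widest gaps are those of Fos (12.8% and 3.26%) and Jun (25% and 13.3%) in the anti-IL-2 CD4 gate, and the tacrolimus Tcf7-positive cells have wide intervals.

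Whether the 5 genes met in the same cells was described by the odds ratio of joint detection, taken over strata of gate, division class and 5 bins of depth, in 1008 anti-IL-2 and 1282 tacrolimus cells. Cells of a library share their preparation and depth, and no test was made. The interval of each odds ratio scales it by the exact limits of the count of cells with both genes. Error in the other cells is left out, so these intervals are too narrow. Egr1 and Egr2 met far more than the other pairs. Of 36 anti-IL-2 cells with Egr2, 25 held Egr1, while 7.51% of cells without Egr2 did, for an odds ratio of 23.2 (15 to 34.3). Under tacrolimus 11 of 19 did, against 4.83% of cells without Egr2, for an odds ratio of 31.2 (15.6 to 55.8).

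Nr4a2 met Egr2 with odds ratios of 4.56 (2.78 to 7.04) and 2.88 (1.44 to 5.15) under anti-IL-2 and tacrolimus, in 20 and 11 cells. With Egr1 its odds ratios were 2.10 (1.52 to 2.81) and 1.56 (0.991 to 2.35). The interval for Egr1 under tacrolimus takes in 1. Of Nr4a2-positive anti-IL-2 cells, 44 of 338 held Egr1, so most Nr4a2-positive cells had no Egr1 transcript counted. Fos met Jun with odds ratios of 1.85 (1.40 to 2.40) and 2.34 (1.80 to 3.0), in 57 of 124 and 63 of 142 cells with Fos.

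Across the 2 kinds of gene, Egr1 met Fos in both libraries, with odds ratios of 2.25 (1.42 to 3.37) and 2.52 (1.5 to 3.99), of the same size as the ratio of Fos with Jun. Egr1 with Jun gave 1.28 (0.894 to 1.77) and 1.08 (0.668 to 1.65), and Egr2 with Jun 0.807 (0.387 to 1.48) and 0.667 (0.216 to 1.56). The intervals of Jun with either Egr gene take in 1 in both libraries. Jun with Nr4a2 gave 1.04 (0.856 to 1.26) and 1.33 (1.08 to 1.62), and Egr2 with Fos 1.10 (0.358 to 2.57) and 3.28 (1.2 to 7.14), the latter on 6 cells. Nr4a2 with Fos gave 2.44 (1.85 to 3.16) under tacrolimus and 1.08 (0.779 to 1.46) under anti-IL-2. These intervals, which cover the joint count alone, do not overlap, and the difference between the libraries was not tested. In the simulated recovery the pair ratios moved by some way (67.5 came back as 81.9 for Egr1 with Egr2, and 1.95 as 1.29 for Egr2 with Nr4a2), so the anti-IL-2 ratios carry that error besides the counting error.

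**Figure D4:**
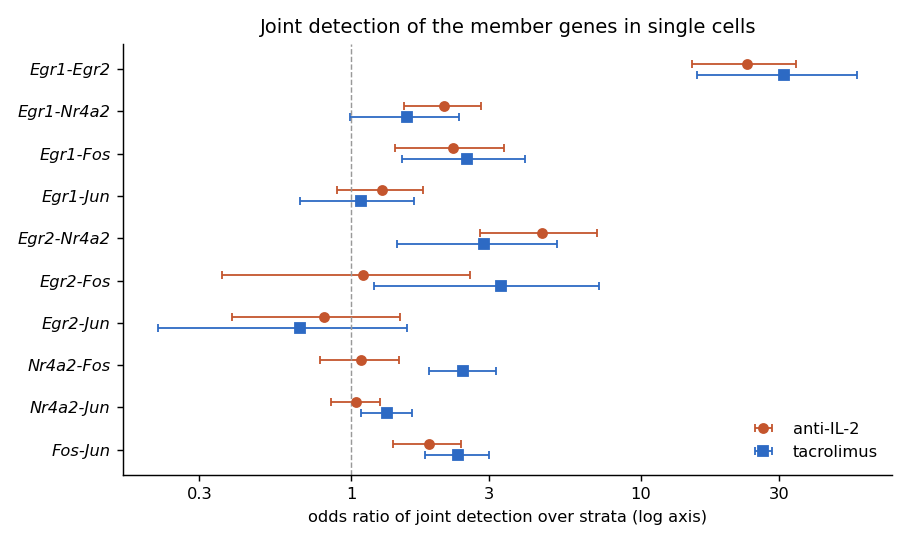
Odds ratio of joint detection (x axis, log scale) for the 10 pairs of genes over strata of gate, division class and depth. Circles are anti-IL-2, squares tacrolimus, and the dashed line marks 1. Bars are 95% intervals for the counting error of the joint count alone. The Egr1 and Egr2 pair stands at 23.2 and 31.2, the pair of Fos and Jun at 1.85 and 2.34, and the pairs of Jun with the Egr genes lie at 0.667 to 1.28.

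Cells were also classed by whether they held a receptor-linked gene (Egr1, Egr2 or Nr4a2), an AP-1 gene (Fos or Jun), or both. In the CD8 gate 28.3% of anti-IL-2 cells held the receptor-linked kind alone (25.1% to 31.6%), against 15.4% of tacrolimus cells (13.2% to 17.8%), 17.6% and 19.0% held AP-1 alone, and 18.3% and 12.9% held both. In the CD4 gate AP-1 alone was in 35.7% (29.8% to 41.8%) and 22.2% (17.6% to 27.4%), the receptor-linked kind alone in 10.9% and 10.9%, and both in 8.53% and 8.19%. These shares are unthinned. Without thinning, the anti-IL-2 surplus was thus in cells with receptor-linked genes alone or with both in the CD8 gate and in cells with AP-1 alone in the CD4 gate. At 5000 UMIs receptor-linked genes alone were in 18.8% and 11.3% of CD8-gate cells, and AP-1 alone in 24.3% and 14.0% of CD4-gate cells, so both gaps were seen at equal depth. Cells with both were then 4.06% and 2.66% in the CD8 gate and 3.95% and 2.08% in the CD4 gate. In the CD4 gate the share with both was thus higher under anti-IL-2 at that depth but level without thinning. No interval was taken at that depth, and this gap was not tested.

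The genes most alike in their cells were taken as the 3 with the highest odds ratio in the tacrolimus library. They were ranked among genes in 5% to 90% of its gate cells, with the 5 genes themselves left out. With them in, Egr1 would lead for Egr2 (31.2) and Fos for Jun (2.34). For Egr1 these were Anp32e (5.49, and 0.965 under anti-IL-2), Icos (4.33 and 0.932) and Tnf (4.14 and 2.04), and of these Tnf, the tumour necrosis factor gene, alone had an odds ratio above 1.5 in both libraries. For Egr2 they were Bcl2a1d (18.9 and 1.55), Tnf (12.6 and 4.74) and Pcna (12.5 and 1.58), resting on 19 tacrolimus cells with Egr2. For Nr4a2 they were Rgs16, a regulator of G-protein signalling (3.57 and 2.81), the chemokine gene Ccl3 (2.99 and 2.27) and Nos1 (2.97 and 1.85). All 3 Nr4a2 partners stood above 1.5 in both libraries. For Fos they were the phosphatase gene Dusp1 (3.47 and 2.14), Cd69 (3.15 and 2.09) and Ssrp1 (2.98 and 0.917). For Jun they were Tuba1a (2.10 and 0.647) and the inducible heat shock protein 70 genes Hspa1b (2.09 and 2.51) and Hspa1a (2.06 and 1.56). Hspa1b was also the gene with the highest odds ratio with Jun among 844 compared in the anti-IL-2 library. A low odds ratio in counts this sparse is a weak relation, and those under 2 are given as values alone.

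Beside a list of receptor-induced genes, of which 24 were measured and 21 (anti-IL-2) and 20 (tacrolimus) were frequent enough to compare, the Egr genes kept closer company than Jun did. The share of those list genes with an odds ratio above 1.5 was 47.6% and 90% for Egr1 (in the same order of libraries), 90.5% and 80.0% for Egr2 and 38.1% and 50% for Nr4a2. Over all genes compared it was 12% and 21.4% for Egr1, 25.6% and 33.1% for Egr2, and 16.4% and 9.49% for Nr4a2. For the list of immediate early and handling genes it was 37.5% and 26.7% for Egr1, 43.8% and 40.0% for Egr2, and 37.5% and 20.0% for Nr4a2. Under anti-IL-2, Nr4a2 thus stood nearly level between the 2 lists. Fos had 19.0% and 50% of the receptor-induced list above 1.5 and 43.8% and 46.7% of the list of immediate early and handling genes, where 15.5% and 10.0% of all genes were. Jun had 14.3% and 10.0% of the receptor-induced and 12.5% and 33.3% of the immediate early and handling genes, where 6.52% and 4.81% of all genes were. Egr2 with Nr4a1, a close relative of Nr4a2, had odds ratios of 6.26 and 11.2, and Egr2 with Irf4, a factor whose level follows receptor strength, 7.17 and 4.47. Under anti-IL-2 the list gene with the highest Egr2 odds ratio was Zfp36l1, an immediate early and handling gene (11.9, and 4.32 under tacrolimus). Dusp5 of the receptor-induced list ran the other way with Egr2, at 0.489 and 0.854. Egr1 met Nr4a1 at 3.09 and 3.37 and Irf4 at 2.48 and 2.04. Egr1 with Irf8, another factor of the list, gave 0.981 and 1.07.

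Between the libraries, the receptor-induced list stood near the background in the CD4 gate. Of 20 list genes at the minimum, 1 was higher and 8 were lower in anti-IL-2 cells, where 11.5% of all genes were higher and 40.0% lower, with a median log2 ratio of -0.22 beside -0.36 for all genes. The 6 furthest apart were all lower: Ccl3 (4.26% and 15.1%), Ccl4 (5.81% and 14.7%), Irf8 (19.4% and 42.1%), Phlda1 (12% and 25.9%), the ERK phosphatase gene Dusp5 (27.5% and 58.1%) and Ifng, the interferon gamma gene (14.3% and 26.1%). In the CD8 gate 2 of 20 were higher and 1 lower, near the 8.24% and 9.42% of all genes, with a median of 0.08. Xcl1, a chemokine gene of activated CD8 T cells, was in 16.3% and 4.35%, Tagap in 30.1% and 18.7%, and Phlda1 in 16.9% and 28.3%. Nr4a1 was called in neither direction there, at 12.7% and 9.56%, so its ratio of 1.32 (0.982 to 1.77) was smaller than that of Nr4a2, though the 2 intervals overlap.

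Of 19 immediate early and handling genes at the minimum in the CD4 gate, 2 were higher, near the 11.5% of all genes, and 3 were lower, where 40.0% of all genes were, with a median log2 ratio of 0.01. Hspa1a was in 18.2% and 9.39% (ratio 1.94, 1.17 to 3.16) and Zfp36l1 in 67.1% and 41.0%, while Klf6 was in 29.8% and 52.7% and the transcription factor gene Cebpb in 17.8% and 30.1%. In the CD8 gate 0 of 19 were called, with a median of -0.00, and Hspa1b was in 5.20% and 7.66%. Jun and Hspa1a were thus both higher in the CD4 gate, and in the CD8 gate neither Fos, Jun nor any measured gene of that list was called. Hspa1b was not called in the CD4 gate, at 10.5% and 7.98% (ratio 1.31, 0.736 to 2.43). Whether handling set the Jun difference was not tested. Of the 8 tolerance genes at the minimum, which include targets of NFAT and Egr2, 3 were higher and 1 lower in the CD4 gate and 4 and 0 in the CD8 gate, where the shares of all genes were 11.5% and 40.0%, and 8.24% and 9.42%. Tox2 was in 39.1% and 5.02% of CD4-gate cells and 22.4% and 2.51% of CD8-gate cells, and Tox in 62.4% and 34.1%, and 79.3% and 32.0%. Their medians were 0.37 and 0.43.

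**Figure D5:**
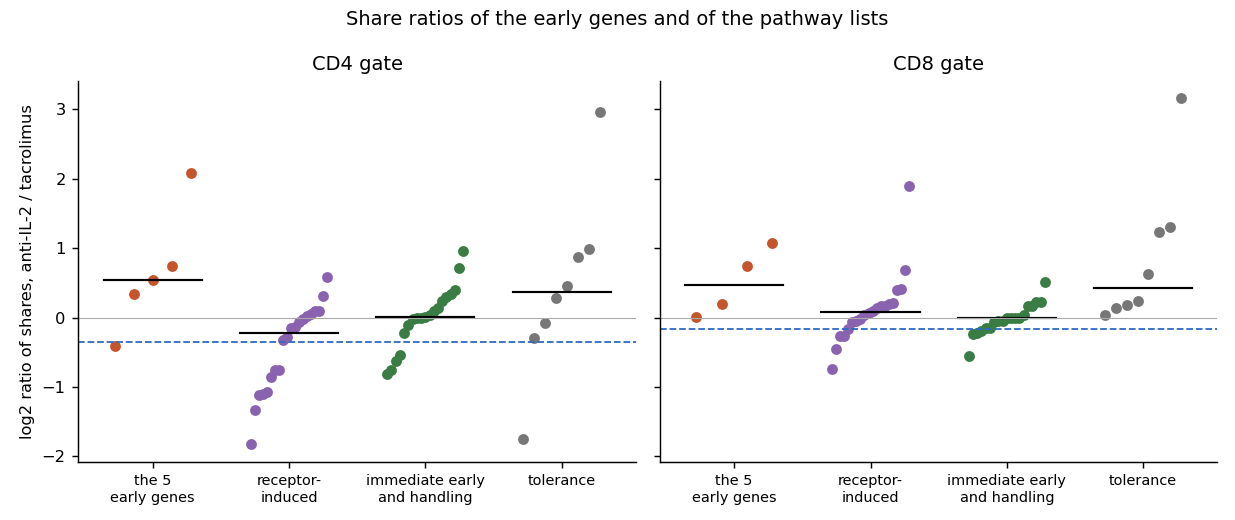
Log2 ratio of shares, anti-IL-2 over thinned tacrolimus (y axis), for each gene at the 5% minimum in the CD4 gate (left) and CD8 gate (right). Points are genes, black bars are list medians and the dashed line is the median of all genes (-0.36 and -0.16). The receptor-induced list reaches down to -1.83 in the CD4 gate, where the median of the 5 early genes is 0.54.

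Cells of other lineages, left out of the gates for holding at least 3 B-cell, myeloid or erythroid markers, had Fos, Jun and Egr1 more often than either gate. Fos was in 43.8% of 80 such anti-IL-2 cells and 33.3% of 57 such tacrolimus cells, and Jun in 56.2% and 50.9%. Egr1 was in 20.0% and 15.8%, Egr2 in 2.50% and 3.51%, and Nr4a2 in 13.8% and 14.0%, at median depths of 13233 and 12462 UMIs. No class of cells in these libraries should lack all 5 genes, so their free-RNA level could not be read from such a class. The part of free RNA in the shares was not tested.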

How the data were processed

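The libraries were made with a 10x 5′ kit and sequenced on 1 instrument type, per the labels' protocols. Cell Ranger 3.1.0, Seurat and mm10 are named in the submitters' processing notes; cell filtering and the counting of overlapping genes are not given in the sources used here. The authors deposited natural log values, ln(1 + x), scaled per cell. With 50000 as the total of a cell, 100.0% of tacrolimus values were whole UMIs to within 0.001, and 308 repeated anti-IL-2 columns among its 1996 were skipped. The anti-IL-2 file had 13.9% of values below 0, as batch integration leaves, so its UMIs were recovered by removing a shift shared by 30 neighbouring cells. Integration was repeated on simulated data (844 query cells of 2000 genes, 200 of them changed, Seurat 5.3.0): 99.6% of detections came back right, the 5 shares were within 0.711 percentage points, and fitted totals had a median ratio of 1.13 to the truth. Query and reference cells were both drawn from the tacrolimus library. The changed genes left out the 5 genes and the gate, division, Tcf7 and Id3 genes. Recovery of these genes where the libraries truly differ in them was therefore not tested. Recovery settings were chosen on another simulated pair and on anti-IL-2 cells whose totals could be read directly.

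Whole-UMI counts replaced the unit planned for. Cells with 1 of the 6 division genes (Mki67, Top2a, Ccna2, Cdk1, Aurkb, Birc5) were kept apart. No doublets were called, and cells with both Cd4 and Cd8 transcripts left the gates. Intervals of shares and of their ratios are exact binomial or conditional intervals at 95%. Like the limit of 3 counts for a share of 0, they cover counting error alone. Those of odds ratios cover the counting error of the joint count only. The members and lists were chosen with earlier results of these data known, and the depth of 5000 UMIs and the 90% ceiling for partner genes were set after the data were seen. From each pathway list up to 6 genes with the largest ratio at the 5% minimum were to be named, and for each member the 3 nearest genes. The 5 members were left out of that last ranking. The lists also hold genes absent from the 2000: 24 of 31 receptor-induced, 23 of 33 immediate early and handling and 9 of 18 tolerance genes were measured. Alternatives covered depth matching, cell filter, integration shift, gate, detection threshold, measure, division and Tcf7 definitions, strata and call rule. Python 3.11.15, numpy 2.4.6, scipy 1.17.1 and scikit-learn 1.9.0 were used.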

Additional observations from a re-analysis of the deposited data

Results flagged for a closer look

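Cells that held both Cd4 and Cd8a or Cd8b1 transcripts entered no comparison, and the 5 genes were present in them above the limit that a count of 0 allows. Among 141 such anti-IL-2 cells Egr1 was in 12.1%, Egr2 in 7.09%, Nr4a2 in 20.6%, Fos in 19.1% and Jun in 40.4%, at a median depth of 14157 UMIs and a limit of 2.13%. Among 91 tacrolimus cells Egr1 was in 15.4%, Nr4a2 in 17.6%, Fos in 14.3% and Jun in 33.0%, at 15181 UMIs and a limit of 3.30%. Nr4a2 lay between its CD4-gate and CD8-gate shares in both libraries, while the shares of the other 4 genes, Egr2 included (5.49% of tacrolimus cells), were above those of both gates before thinning; whether such cells are doublets was not tested.

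Nr4a2 had ratios of opposite sign in the gates between the libraries: its log2 ratio, anti-IL-2 over tacrolimus, was -0.41 in the CD4 gate and 0.74 in the CD8 gate. The difference between the gates was not tested, and the CD4-gate ratio has a counting interval that takes in 1 (0.394 to 1.37). The CD4-gate log2 ratio was 0.08 in dividing cells alone, -0.06 relative to the median of all genes and -0.08 by mean UMIs.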

How the results depend on the processing

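No paired analysis was possible because each treatment had 1 library and the labels give no replicate numbers to share. Over 21 alternatives, 300 values of 71 results were recomputed: 270 stayed within their interval or within 1.5 times, 28 moved and 2 that had been called changed sign. Another 24 values that were not called changed sign, among them Egr1 (-0.28) and Nr4a2 (0.08) of the CD4 gate in dividing cells. With the 18 CD4-gate and 36 CD8-gate anti-IL-2 cells whose total was directly readable, the log2 ratio of Jun in the CD4 gate turned to -0.84, those of Egr1, Egr2 and Fos in the CD8 gate were 1.89, 2.14 and 0.86, 281 genes were higher in the CD4 gate, and 176 were higher and 372 lower in the CD8 gate. With Tcf7 or Id3 as the marker, Jun in tacrolimus CD8-gate cells turned to 0.02. In dividing cells alone, Fos in the CD4 gate was -0.42, and 215 (CD4 gate) and 57 (CD8 gate) genes were lower. In non-dividing cells alone, Jun in the CD4 gate was 1.70, Egr1, Fos and Jun in the CD8 gate were 2.46, 1.17 and 0.68, 200 genes were lower in the CD4 gate, and 123 were higher and 163 lower in the CD8 gate. The counts of genes in the CD8 gate were 77 higher and 88 lower as reported, 42 and 224 with both libraries at 5000 UMIs, 51 and 58 at a 10% minimum, and 44 and 38 at 2-fold; 136 were higher at a 2% minimum, 57 lower with the integration shift left in and 54 lower relative to the median of all genes. The log2 odds ratio of Egr2 with Nr4a2 under anti-IL-2 was 1.44 over depth bins alone and 1.36 with no strata, and that of Nr4a2 with Jun under tacrolimus 0.86 with no strata. Besides what each alternative's own smaller number of cells shows, the cause was not tested. The number of cells limits Egr2, found in 36 anti-IL-2 and 19 tacrolimus cells.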
